A study of Mus musculus with 30 samples.

Results

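The genes described here encode collagens, laminins and integrins, together with fibronectin (Fn1), osteonectin (Sparc), nidogen 1 (Nid1) and perlecan (Hspg2). They were chosen by symbol alone, from the probe sets of the 3 chips that name a single gene. The choice gave 80 genes with 141 probe sets, of 15964 genes that the chips name in this way: 40 collagens, 10 laminins, 26 integrins and the 4 other matrix genes. Of these, 55 genes with 83 probe sets were bright enough to be tested (26 collagens, 8 laminins, 18 integrins, and Fn1, Sparc and Hspg2). The other 25 are described mainly near the end, as levels and by fits with no intensity filter.

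All cells came from a 129-derived mouse embryonic stem (ES) cell line that carries a GFP reporter of Sox1, a transcription factor of early neural cells, so every group shares the reporter and the strain. ES cells were sorted for E-cadherin, the adhesion protein of epithelial cells and ES cells, and arrayed as 3 samples. SFEB aggregates, in which dissociated ES cells regroup in suspension, gave the other 7 samples: day 1 (no sort is named), day 2 sorted as E-cadherin-positive or E-cadherin-negative, day 3 sorted as Sox1-negative or Sox1-positive, and Sox1-positive cells of days 4 and 5. The labels describe a medium with or without fetal calf serum and do not say which a sample had. Each of the 7 is 1 sample, and nothing says that the 3 ES samples were separate cultures, so the p-values reflect only how far these samples differ among themselves, which may be technical. For tests, the Sox1-positive samples of days 3, 4 and 5 formed a class of 3 and the remaining 4 aggregate samples another, so that days are mixed within a class.

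Collagens are triple helices of 3 chains. Type IV collagen forms the sheet of a basement membrane, while types I, III and V form fibrils. Laminins are trimers of an alpha, a beta and a gamma chain that make up the other network of the basement membrane. Nidogen and perlecan link these networks, and integrins, dimers of an alpha and a beta chain, are the receptors by which cells hold on to them. In the early mouse embryo a laminin-rich basement membrane underlies the epiblast and later the neural epithelium.

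Summed marker levels separated Sox1-positive from ES cells. The summed intensity of 12 neural progenitor markers was 4602 to 4636 in ES cells and 28105 to 29926 in Sox1-positive cells, and that of 12 pluripotency markers was 44802 to 56677 and 7251 to 12126. Among the 4 other aggregate samples, the day 2 E-cadherin-negative sample stood apart, at 19562 for the neural sum (the other 3 lay between 4736 and 5475) and 13574 for the pluripotency sum (33781 to 37195). The neural sum leans on its brightest gene, Crabp1, which read 11405, 9898 and 5075 in Sox1-positive cells and 6659 in that day 2 sample. Hes5 entered it by a level probe set (1093 to 1560), while another rose. Limma called 10 of the 12 neural markers higher in Sox1-positive than in ES cells. The Sox1 probe set itself was at 138 to 173 in ES cells and at 252 to 310 in Sox1-positive cells. It read 152 on day 1, 253 and 251 in the E-cadherin-positive and negative cells of day 2, and 241 in Sox1-negative cells of day 3, so it did not set the Sox1-positive sort apart from each other aggregate. ES 3 had the highest actin 3′/5′ ratio on each chip, 1.70, 1.64 and 1.85, against 0.939 to 1.44 in the other samples. Each array had been scaled by the depositors to a trimmed mean near 500, and precision is set by how few arrays there are.

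Type IV collagen genes lie head to head, and 2 of these gene pairs are shown as background to the values of Col4a1, Col4a2 and Col4a5 described below. The sequences are RefSeq promoter windows of build GRCm38.p6, from 250 bases before to 50 bases after the annotated start, in the direction of the gene, and such windows were found for 57 of the 80 genes. Col4a1 lies on the minus strand (window chr8:11312777-11313076) and Col4a2 on the plus strand (chr8:11312555-11312854). Their starts are 21 bases apart, and the capitals mark the 78 bases that both windows share, read from opposite strands. Col4a5 is on the plus strand of the X chromosome (chrX:141475169-141475468) and Col4a6 on the minus strand (chrX:141474027-141474326), with starts 1343 bases apart and no shared base. There the capitals mark matches to CCAAT and to GGGCGG on either strand.
Col4a1: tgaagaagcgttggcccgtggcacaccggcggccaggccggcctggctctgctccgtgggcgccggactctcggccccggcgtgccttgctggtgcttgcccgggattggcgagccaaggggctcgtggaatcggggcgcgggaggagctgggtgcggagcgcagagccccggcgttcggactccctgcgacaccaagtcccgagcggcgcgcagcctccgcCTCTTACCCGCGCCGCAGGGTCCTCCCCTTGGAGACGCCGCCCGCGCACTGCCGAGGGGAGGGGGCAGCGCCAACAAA
Col4a2: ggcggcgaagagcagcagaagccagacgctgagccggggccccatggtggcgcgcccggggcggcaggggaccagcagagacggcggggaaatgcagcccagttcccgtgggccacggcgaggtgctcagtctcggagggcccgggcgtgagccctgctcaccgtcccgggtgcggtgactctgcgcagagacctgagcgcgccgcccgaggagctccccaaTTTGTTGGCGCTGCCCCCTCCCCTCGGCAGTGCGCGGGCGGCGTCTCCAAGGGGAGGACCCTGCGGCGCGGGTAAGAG
Col4a5: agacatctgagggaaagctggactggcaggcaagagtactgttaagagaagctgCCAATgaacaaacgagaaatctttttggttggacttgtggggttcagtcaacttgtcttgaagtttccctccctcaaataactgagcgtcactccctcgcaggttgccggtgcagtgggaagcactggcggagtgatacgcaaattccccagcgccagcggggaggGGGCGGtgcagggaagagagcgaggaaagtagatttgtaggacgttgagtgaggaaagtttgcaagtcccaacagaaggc
Col4a6: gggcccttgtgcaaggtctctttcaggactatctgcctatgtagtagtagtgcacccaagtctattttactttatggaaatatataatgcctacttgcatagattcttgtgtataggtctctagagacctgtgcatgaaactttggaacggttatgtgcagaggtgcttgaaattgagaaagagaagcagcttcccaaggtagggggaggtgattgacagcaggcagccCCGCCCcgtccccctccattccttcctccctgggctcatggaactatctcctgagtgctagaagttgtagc
Searched on both strands, CCAAT matched 1 time in each of the Col4a1, Col4a2 and Col4a5 windows and was not among the letters of the Col4a6 window. GGGCGG matched 1 time in the windows of Col4a1, Col4a5 and Col4a6 and 3 times in that of Col4a2, and TATAAA in none of the 4. Of 32817 RefSeq windows of this length, 37.4% hold CCAAT, 35.6% GGGCGG and 13.6% TATAAA. A match is a description of letters and not a mapped site.

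In the comparison of Sox1-positive with ES cells (3 samples each), 5 of the 55 genes were called by limma at an adjusted p under 0.05, each of them lower in Sox1-positive cells: the laminin chain Lamc1, perlecan (Hspg2), and the integrins Itga3, Itga6 and Itgb7. That is 9.09% of the genes tested here, against a background of 12.6% of the 12941 genes tested on the chips (6.4% higher and 6.17% lower), so matrix and integrin genes were not called more often than genes at large. The median difference was -0.12 on the log2 scale over the 55 genes and -0.01 over all genes. At an unadjusted p under 0.05 the count was 10 of 55 (18.2%, background 27.8%). The 2 groups of samples did not overlap for 11 of the 55 genes (20%), and for 35.1% of all genes. They did not overlap either for 5 genes between the other aggregates and ES cells (9.09%, background 11.2%), and for 7 between Sox1-positive and other aggregate cells (12.7%, background 21.1%). Each sample is bulk RNA, in which fewer cells of a type and less RNA per cell cannot be told apart.

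The other class comparisons gave still fewer calls. Between the 4 other aggregate samples and ES cells limma called 0 of 55 genes (background 0.0309%), with 6 at an unadjusted p under 0.05 (10.9%, background 10%). Sox1-positive cells differed from the 4 other aggregate samples in 1 gene of 55, Col4a5, which was higher (1.82%, background 1.75%, of which 0.61% higher), with 13 at an unadjusted p under 0.05 (23.6%, background 22%). Col4a5 entered the test only through its Sox1-positive samples, as its values below show, so this call is no support for a difference. Without the day 2 E-cadherin-negative sample, which carried the neural marker levels given above, this last comparison called 8 of 55 genes (14.5%, background 10.2%). These were Col4a1, Col4a2, Col4a5, Col5a2 and Lama1, higher in Sox1-positive cells, and Itga6, Itgb4 and Itgb7, lower. In all of them but Col4a5, the sample left out was the one of its class nearest to the Sox1-positive level, as the values below show. The count therefore restates those values and is no further evidence. Without the day 3 Sox1-negative sample the comparison called 0, against a background of 0.0695%. The 3 comparisons share samples, so their counts are not independent of each other.

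**Figure D1:**
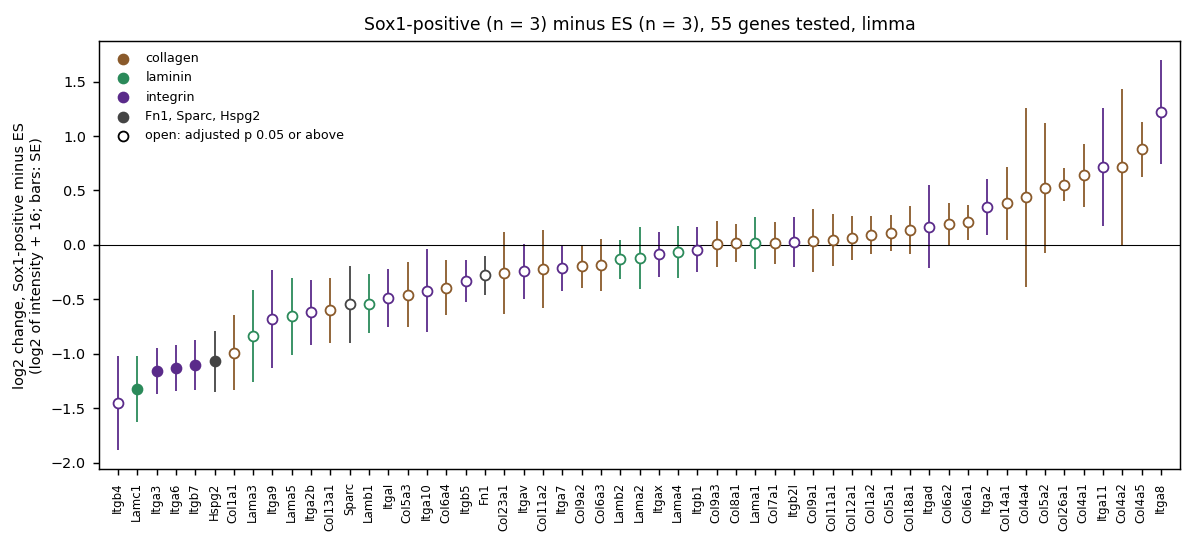
Differences of the 55 tested genes between Sox1-positive and ES cells on the log2(intensity + 16) scale, with standard errors from limma and genes ordered by size; filled points were called. The 5 filled points are all below 0, and the rightmost genes, Itga8 (1.22) and Col4a5 (0.88), are open.

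Values below are deposited intensities in a fixed order: ES 1, 2 and 3, then the other aggregates (day 1, the E-cadherin-positive and then the negative cells of day 2, the Sox1-negative cells of day 3), then Sox1-positive cells of days 3, 4 and 5. Differences are on the log2(intensity + 16) scale, which understates changes of dim genes. An intensity is compared only within a probe set, since probe sets differ in how strongly they bind. Suffixes such as _f_at and _r_at mark probe sets whose probes may also match related transcripts or were chosen under relaxed rules.

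Among the basement membrane collagens, Col4a1 and Col4a2, the chains of the common type IV trimer, were high in Sox1-positive cells and low in 3 of the 4 other aggregate samples. The Col4a1 probe set (101093_at) read 403, 739 and 858 in ES cells, 499, 220, 891 and 330 in the other aggregates, and 1069, 839 and 1113 in Sox1-positive cells. The main Col4a2 probe set (129827_f_at) read 220, 1399 and 1711, then 209, 317, 925 and 228, then 1408, 1304 and 1341. For both genes the day 2 E-cadherin-negative sample was the highest of its class, and ES 1 the lowest of the ES samples.

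The Sox1-positive levels of Col4a2 were tight, at 1351 ± 52.9 (SD, n = 3), whereas the ES level was 1110 ± 786 (n = 3). Against the other aggregates, Col4a2 differed by 1.91 ± 0.483 (SE; limma adjusted p = 0.0846) and Col4a1 by 1.20 ± 0.399 (limma adjusted p = 0.142), neither past the threshold. With the day 2 E-cadherin-negative sample left out, both passed: 2.37 ± 0.251 for Col4a2 (limma adjusted p = 0.00346) and 1.54 ± 0.288 for Col4a1 (limma adjusted p = 0.0164). That sample was the highest of its class for both genes, so these results restate its values and are no further evidence. A second Col4a2 probe set (101039_at) read 280, 431 and 456, then 312, 257, 477 and 172, then 581, 655 and 586. It thus had the same high and low samples with a smaller range among ES cells, 0.67 against 2.87 on the log2 scale.

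Col4a5, a chain of the type IV trimers of kidney and lens basement membranes, was the gene called between Sox1-positive and other aggregate cells, and it had passed the intensity filter narrowly. Its mean over the 10 samples was 79.1 against a filter of 78.6, while its class means were 64.2 in ES cells, 54.8 in the other aggregates and 126 in Sox1-positive cells. A gene that passes only through the class where it is high is bound to differ, so its values are given as a description. Its probe set (93220_at) read 46.6, 49.5 and 96.5 in ES cells, 44.3, 44.6, 51.1 and 79.1 in the other aggregates, and 114, 143 and 122 in Sox1-positive cells. The 3 Sox1-positive samples lay above all 7 others, with ES 3 and day 3 Sox1-negative cells nearest to them. The difference from the other aggregates was 1.03 ± 0.205 (SE; limma adjusted p = 0.0493), and that from ES cells 0.88 ± 0.252 (limma adjusted p = 0.0653). The call against the other aggregates ended in 11 of 15 alternatives, among them no filter (limma adjusted p = 0.0763), with adjusted p from 0.0308 to 0.157 by limma, and the samples whose removal ended it were day 1, day 2 E-cadherin-positive, day 3 Sox1-negative and each Sox1-positive sample.

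Its neighbour Col4a6 (163892_at) was too dim to be tested. It read 18.8, 112 and 27.4, then 20.1, 18.4, 29.3 and 36.0, then 90.7, 78.5 and 145. Sox1-positive cells were above the other aggregates in every sample, and ES 2 lay among them.

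The remaining tested basement membrane collagens showed no call. Col18a1, the source of endostatin, read 1347 to 2595 over the 10 samples (99638_at), with a difference of 0.14 between Sox1-positive and ES cells. Col7a1, the anchoring fibril collagen, read 250 to 363 (93383_at). Col4a4 (136277_at) varied most among ES cells after Col4a2, at 169, 143 and 15.2, and also spread widely in Sox1-positive cells, at 170, 36.8 and 214.

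**Figure D2:**
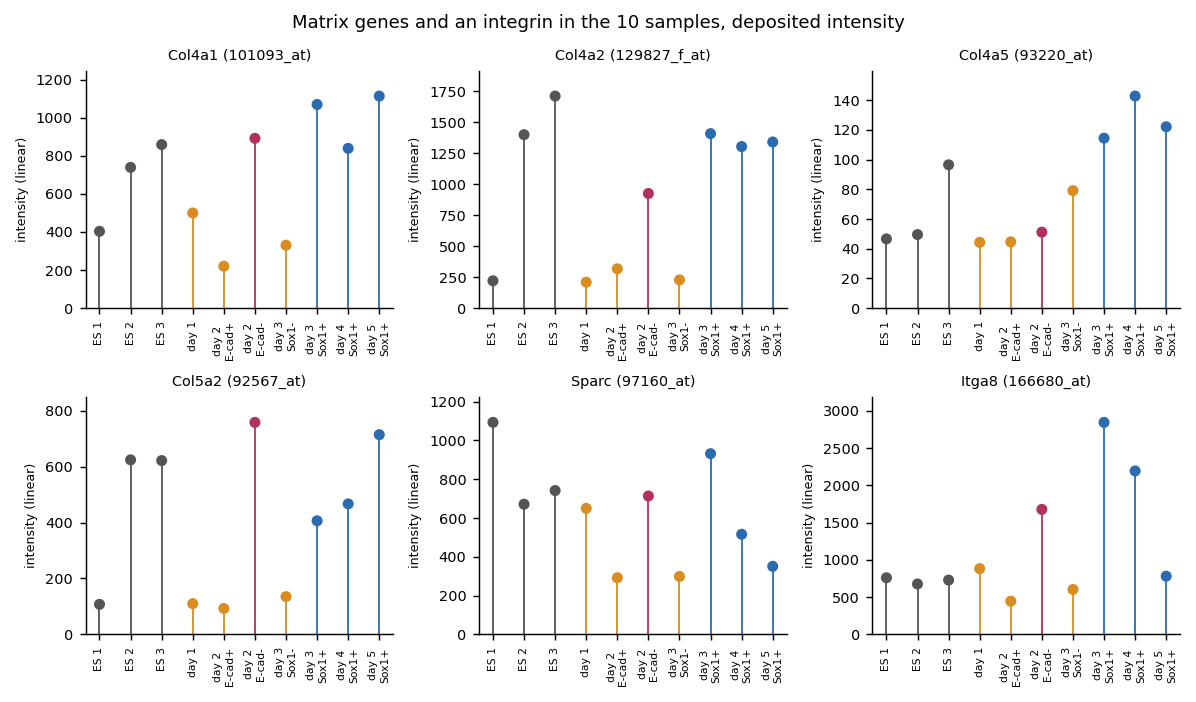
Deposited intensity of 6 probe sets in the 10 samples: ES cells in grey, day 2 E-cadherin-negative cells in red, the other 3 aggregate samples in orange, Sox1-positive cells in blue. For Col4a1, Col4a2 and Col5a2 the red sample (891, 925 and 758) is far above the orange ones, which stay at or below 499; for Col4a2 it is still below the blue ones.

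Several probe sets of fibrillar collagens differed widely among the ES samples, though for Col1a2 and Col5a1 these are not the probe sets that stand for the gene. Of 7 fibrillar collagens tested, limma called 0 in each class comparison, with 1 at an unadjusted p under 0.05 in each. The background of calls was 12.6% for Sox1-positive against ES cells. It was 0.0309% for the other aggregates against ES cells and 1.75% for Sox1-positive against other aggregate cells. At an unadjusted p under 0.05 it was 27.8%, 10% and 22% in the same order, so counts among so few genes say little. Col1a1, a chain of type I collagen, read 366, 912 and 948 in ES cells with its brightest probe set (103709_at). The other samples read 207, 280, 497 and 375, then 372, 332 and 308. A second probe set (94305_at) showed a wider gap, at 41.6, 818 and 1002 in ES cells, 35.8, 56.8, 173 and 24.5 in the other aggregates, and 96.9, 120 and 59.9 in Sox1-positive cells. In both, ES 2 and ES 3 were above every other sample and ES 1 lay within the range of the aggregates.

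Col1a2, the partner chain, gave different pictures with its 2 tested probe sets. One of them (101130_at) read 23.5, 474 and 795 in ES cells, 15.6, 26.5, 76.5 and 29.8 in the other aggregates, and 169, 81.8 and 202 in Sox1-positive cells. The brighter one (161156_r_at), which stands for the gene in the tests, read 1302, 1156 and 1253, then 883, 1360, 1816 and 1554, then 1498, 1276 and 1191, with no such gap.

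Type V collagen, which sets the width of type I fibrils, behaved in the same 2 ways. Col5a2 (92567_at) read 108, 624 and 621 in ES cells, 110, 92.8, 758 and 135 in the other aggregates, and 406, 467 and 714 in Sox1-positive cells. Thus ES 1 and 3 of the other aggregates were low, and ES 2, ES 3, the day 2 E-cadherin-negative sample and all Sox1-positive samples were high. A Col5a1 probe set (135189_f_at) read 116, 790 and 712, then 188, 185, 444 and 185, then 482, 497 and 1248, the last on day 5. The brightest Col5a1 probe set (93472_at) was level, between 502 and 708 in the 10 samples.

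Fibroblast and feeder markers were read beside these genes. The summed intensity of 16 such markers was 1527 in ES 1, 6276 in ES 2 and 4960 in ES 3, against 1736 to 2253 in the other aggregates and 1425 to 3572 in Sox1-positive cells. ES 2 and ES 3 were both above ES 1 in 8 of the 16, and by at least 1 on the log2 scale in 3: the smooth-muscle actin Acta2 (216, 2490 and 1760 in ES cells), the actin-binding Tagln (232, 2445 and 1979) and Cnn1 (28.5, 246 and 192). Among all genes tested, 2.82% were higher by at least 1 in both, and the share for any rise was not counted. Acta2 and Tagln carried most of the rise of the sum in ES 2 and ES 3, and Tagln also read 1764 in Sox1-positive cells of day 3. Another Acta2 probe set went the opposite way, at 357, 44.8 and 53.5. Smaller rises in the same direction were seen for Dcn (64.2, 129 and 107), S100a4 (36.2, 103 and 79.7), Thy1 (87.6, 150 and 127), Postn (35.5, 53.0 and 47.6) and Mgp (10.0, 10.7 and 11.2). Pdgfrb (68.3, 39.6 and 42.6), Fap (8.34, 6.93 and 36.1), Loxl1 (395, 271 and 262) and Lum (87.4, 44.2 and 86.6) did not share that order. Neither did Dpt, Prrx1, Twist1 and Twist2. Of the 16 markers, 7 were below the intensity filter, Pdgfrb, Postn, Fap and S100a4 among them. Type III collagen, Col3a1, was dim and not tested, and its brightest probe set (98331_at) read 14.6, 73.6 and 90.3 in ES cells, with ES 1 again the lowest. Dcn, Lum and Loxl1 also stand in other lists used here. Endoderm markers, given below, also summed lower in ES 1 than in ES 2 and ES 3. The part of fibroblasts or endoderm in the collagen levels of ES 2 and ES 3 was not tested.

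**Figure D3:**
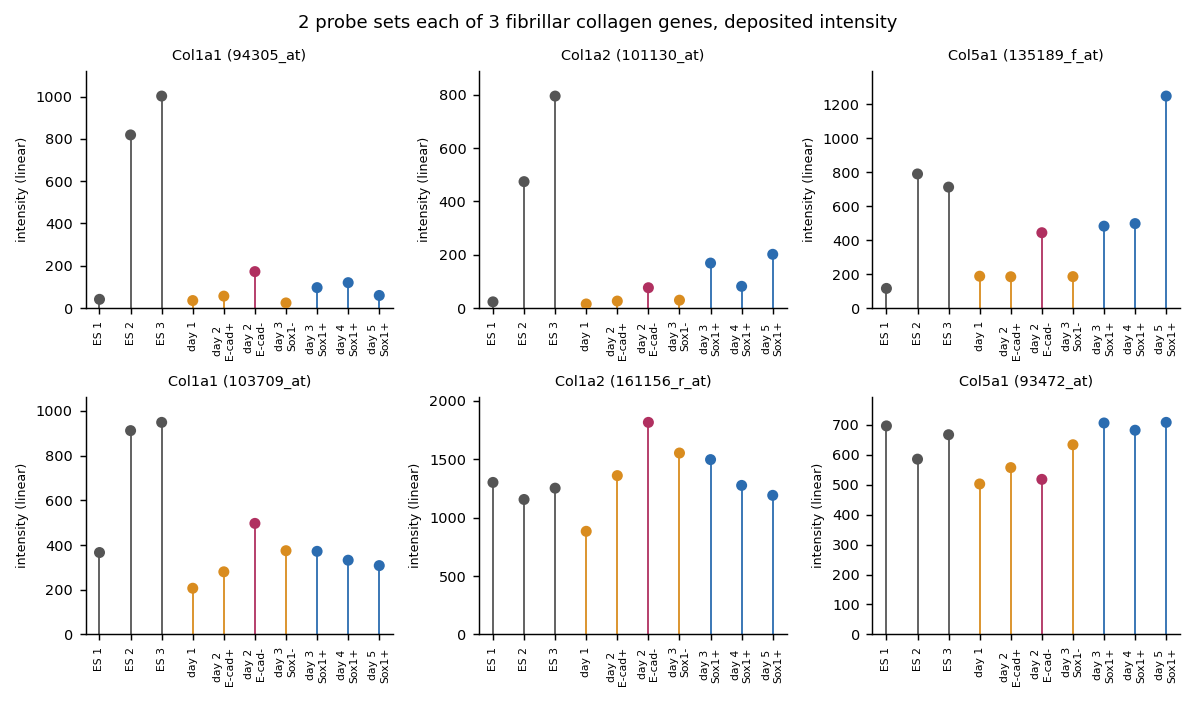
Deposited intensity of 2 probe sets each for Col1a1, Col1a2 and Col5a1, with ES cells in grey, day 2 E-cadherin-negative cells in red, other aggregate samples in orange and Sox1-positive cells in blue. In the upper row ES 1 (41.6, 23.5 and 116) is far below ES 2 and ES 3, a gap that the lower Col1a2 and Col5a1 probe sets lack.

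Over the 55 tested genes the range among the 3 ES samples had a median of 0.53 on the log2 scale, against 0.48 for all genes. It reached 1 or more in 11 of 55 (20%, background 14.8%). The 5 widest were Col4a2 (2.87), Col4a4 (2.57), Col5a2 (2.37), Lama3 (1.41) and Itgad (1.41). ES 2 and ES 3 were both at least 1 above ES 1 in Col4a2, Col1a1 and Col5a2 (5.45%, background 2.82%), and the reverse held for 0 of 55 (background 1.17%). Lama3 and Itgad did not split in that way: Lama3, which passed the filter only through its ES samples, read 152, 170 and 54.2, and Itgad 226, 116 and 334.

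The other collagens gave no call at the level of the gene. None of 5 fibril-associated and 6 beaded-filament or network collagens was called by limma in a class comparison. At an unadjusted p under 0.05 only Col26a1 appeared, higher in Sox1-positive than in ES cells by 0.55 ± 0.156. The backgrounds are those given for the fibrillar collagens. Its probe set (97982_at) was at 176, 182 and 187 in ES cells, 121, 261, 400 and 275 in the other aggregates and 273, 274 and 275 in Sox1-positive cells. The type VI chains Col6a1 and Col6a2 stayed between 287 and 428 and between 148 and 291. For Col6a3, which shares their filament, the dimmer of 2 probe sets (101110_at) was called lower, at 111, 138 and 152 in ES cells and 62.0, 89.0 and 65.1 in Sox1-positive cells (-0.77 ± 0.200, limma adjusted p = 0.0468). This probe set averaged 94.8 against a filter of 78.6. Its class means were 134 in ES cells, 82.6 in the other aggregates and 72.1 in Sox1-positive cells. With no filter the call ended (limma adjusted p = 0.0771), so these values are a description. The brighter one (169943_f_at) differed by -0.18. Of the transmembrane collagens, Col13a1 and Col23a1 were tested and not called.

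Of 8 laminin chains tested, 1 was called between Sox1-positive and ES cells (background 12.6%), so laminins were not called more often than genes at large. Lamc1, the gamma chain of most laminins, was the one called, lower in Sox1-positive cells. Its tested probe set (161706_f_at) read 1064, 998 and 1177 in ES cells, 616, 518, 592 and 823 in the other aggregates, and 289, 371 and 692 in Sox1-positive cells. All 7 aggregate samples lay below all 3 ES samples, and day 5 was well above days 3 and 4. The difference between Sox1-positive cells (451 ± 213, SD, n = 3) and ES cells (1080 ± 90.4, n = 3) was -1.32 ± 0.301 (SE; limma adjusted p = 0.0291). The call ended in 6 of 15 alternatives, with limma adjusted p up to 0.100. These were no filter (limma adjusted p = 0.0513) and leaving out any ES sample or the Sox1-positive sample of day 3 or day 4. A dimmer Lamc1 probe set (102404_at), below the filter, read 43.3 to 52.9 in ES cells and 41.7 to 70.7 in Sox1-positive cells, so the fall rests on 1 probe set.

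Lama1, the alpha chain of the embryonic laminin, was not called. It read 428, 426 and 406 in ES cells, 156, 225, 330 and 195 in the other aggregates, and 410, 313 and 600 in Sox1-positive cells (103729_at). The other aggregates were all below the ES samples, by -0.90 ± 0.237 (limma adjusted p = 0.285), and the Sox1-positive samples differed from the other aggregates by 0.91 ± 0.286 (limma adjusted p = 0.125). Without the day 2 E-cadherin-negative sample the latter was 1.10 ± 0.260 and passed (limma adjusted p = 0.0369). That sample was the highest of its class (330), so this restates its value.

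Lamb1, the beta chain of the same trimer, gave no call. Its main probe set (162263_f_at) read 203, 358 and 368, then 226, 316, 318 and 465, then 257, 169 and 187. Another (136107_at) was at 437, 116 and 120, then 252, 576, 259 and 530, then 149, 129 and 145, so Sox1-positive samples were below all other aggregates there, by -1.32 ± 0.349 (limma adjusted p = 0.0935). The dimmer 101948_at was level, between 198 and 298. Lama5, the alpha chain of widespread epithelial laminins, read 676, 1218 and 1160, then 805, 1263, 863 and 1289, then 859, 737 and 372 (99931_at), lowest on day 5. The probe sets that stand for Lama4 (167575_r_at) and Lamb2 (164353_r_at) were level at 7331 to 9362 and 3675 to 4737, and other Lama4 and Lamb2 probe sets were below 350 in all samples.

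Perlecan, the heparan sulfate proteoglycan of basement membranes, was lower outside ES cells. Hspg2 (101399_at) read 490, 831 and 1059 in ES cells, 348, 466, 476 and 232 in the other aggregates, and 357, 382 and 319 in Sox1-positive cells. Every aggregate sample was below every ES sample, with ES 1 nearest to them. The difference of Sox1-positive from ES cells was -1.07 ± 0.277 (SE; limma adjusted p = 0.0458), and that of the other aggregates -1.01 ± 0.315 (limma adjusted p = 0.332). The call ended in 7 of 15 alternatives (limma adjusted p up to 0.153). These were no filter (limma adjusted p = 0.0764), a pseudocount of 1, and leaving out ES 2, ES 3 or any Sox1-positive sample. The fibroblast marker sum given above was also higher in ES 2 and ES 3 than in ES 1, mostly through Acta2 and Tagln. So was the endoderm marker sum given below. The part of either in this result was not tested.

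Fibronectin, the main RGD-bearing ligand of integrins, did not pass the test. Fn1 (92852_at) was at 1261, 1204 and 1144, then 1071, 1728, 1141 and 1562, then 1162, 912 and 906. The Sox1-positive samples differed from ES cells by -0.28 ± 0.177 (limma adjusted p = 0.385). Sparc, a secreted collagen-binding glycoprotein, read 1093, 671 and 742, then 650, 292, 714 and 299, then 932, 516 and 351 (97160_at). It was lowest in the day 2 E-cadherin-positive and day 3 Sox1-negative samples. Nid1 was dim throughout, at 25.1 to 62.4, and was not tested.

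Of 18 integrins tested, 3 were called between Sox1-positive and ES cells, all lower (background 6.17% lower), and 2 of these are among the 3 laminin-binding alpha chains. Whether these chains differ from other integrins was not tested. Itga3 (104210_at), whose dimer with beta 1 binds laminins of epithelia, read 516, 419 and 567 in ES cells, 382, 303, 294 and 297 in the other aggregates, and 239, 243 and 166 in Sox1-positive cells. The 3 classes did not overlap, with the other aggregates in between. Sox1-positive cells were at 216 ± 43.3 (SD, n = 3) and ES cells at 501 ± 74.9 (n = 3), a difference of -1.16 ± 0.212 (SE; limma adjusted p = 0.0129). This call held in all 15 alternatives, with a highest limma adjusted p of 0.0479. A second probe set (104211_at) differed by -0.84 ± 0.228 (limma adjusted p = 0.0535).

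Itga6 (95511_at), the other major laminin receptor chain, read 452, 425 and 433 in ES cells, 517, 326, 316 and 404 in the other aggregates, and 256, 169 and 159 in Sox1-positive cells. Sox1-positive samples lay below all 7 others, and the other aggregates overlapped the ES samples. The difference from ES cells was -1.13 ± 0.210 (SE; limma adjusted p = 0.0136), and the call ended in 2 of 15 alternatives, without ES 2 and without day 4 (highest limma adjusted p = 0.0600). Against the other aggregates the difference was -0.95 ± 0.235 (limma adjusted p = 0.0751). Itga7, the last of this group, read 213 to 288 in ES cells and 174 to 264 in Sox1-positive cells (161497_f_at), -0.21 on the log2 scale and not called (limma adjusted p = 0.611).

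Itgb4, which pairs with alpha 6 in the hemidesmosomes of epithelia, read 296, 169 and 113, then 268, 196, 143 and 226, then 116, 35.6 and 37.3 (103305_at). Days 4 and 5 were the lowest samples, and the day 3 value was close to ES 3. Its difference from ES cells was -1.45 ± 0.434 (limma adjusted p = 0.0746), the largest fall in size among the 55 but not past the threshold, and from the other aggregates -1.62 ± 0.347 (limma adjusted p = 0.0555). Without the day 2 E-cadherin-negative sample the latter became -1.77 ± 0.356 (limma adjusted p = 0.0214). That sample was the lowest of its class (143), so this restates its value.

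Itgb7, best known from leukocyte homing receptors, was also lower in Sox1-positive cells. It read 638, 516 and 438 in ES cells, 559, 441, 257 and 448 in the other aggregates, and 240, 294 and 183 in Sox1-positive cells (100906_at). The day 2 E-cadherin-negative sample lay within the Sox1-positive range, and the other 3 aggregates within or near the ES range. The difference from ES cells was -1.11 ± 0.229 (SE; limma adjusted p = 0.0206), and the call ended in 4 of 15 alternatives, without ES 1, ES 2, day 3 or day 5 (highest limma adjusted p = 0.0751). Blood and endothelium markers summed to 1301 to 1544 in ES cells, 1091 to 1714 in the other aggregates and 777 to 1356 in Sox1-positive cells, with 7 of 12 below the filter, among them the endothelial cadherin Cdh5. Their part in the Itgb7 result was not tested. Another Itgb7 probe set was below 70 in each sample.

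**Figure D4:**
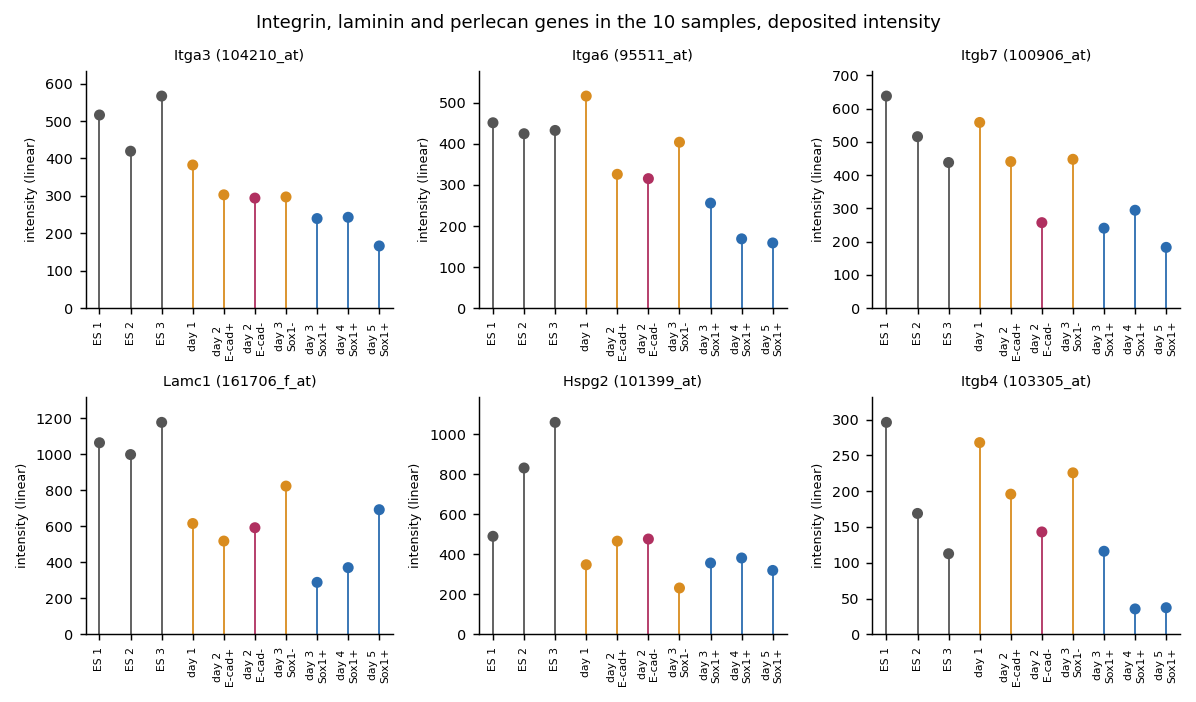
Deposited intensity of 6 probe sets in the 10 samples, with ES cells in grey, day 2 E-cadherin-negative cells in red, other aggregate samples in orange and Sox1-positive cells in blue. Itga3, Itga6, Itgb7, Lamc1 and Hspg2 have each blue sample below each grey one, whereas for Itgb4 day 3 (116) is level with ES 3 (113).

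Itgb1, the partner of most matrix-binding alpha chains, was high and level. Its main probe set (100123_f_at) read 5839, 5875 and 6825, then 6501, 5316, 6910 and 6190, then 7497, 4845 and 5853. The difference of Sox1-positive from ES cells was -0.05 ± 0.207 (limma adjusted p = 0.925). Itgb5, a partner of alpha v, differed by -0.33 ± 0.191 (limma adjusted p = 0.335).

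RGD-binding alpha chains gave no call. Itgav, the vitronectin receptor chain, was at 1376, 1991 and 2359, then 2049, 1507, 1716 and 1596, then 1400, 1392 and 1995 (104386_f_at). Itga8, a receptor chain for nephronectin, read 761, 677 and 729, then 883, 447, 1678 and 603, then 2846, 2194 and 782 (166680_at). It was highest in Sox1-positive cells of days 3 and 4 and in day 2 E-cadherin-negative cells, while the day 5 value lay close to that of ES 1. Its difference from ES cells was 1.22 ± 0.479 (limma adjusted p = 0.171). Other Itga8 probe sets did not share this rise. With no filter applied, Sox1-positive cells differed from ES cells by -0.54 (100313_at) and 0.01 (100314_f_at), and from the other aggregates by -0.72 and -0.16. Itga5, the classical fibronectin receptor chain, was below the filter, at 134, 93.4 and 153 in ES cells and 57.7, 38.6 and 16.5 in Sox1-positive cells.

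Of the collagen-binding alpha chains, Itga11 read 95.2, 40.7 and 96.6, then 193, 71.4, 247 and 60, then 267, 161 and 46.4 (115558_at). Itga10 read 165, 177 and 135, then 147, 76.3, 224 and 65.2, then 165, 145 and 59.9 (135131_at). Both were higher in the day 2 E-cadherin-negative and day 3 Sox1-positive samples than in the opposite sorts, and low again on day 5. Neither was called, nor was Itga2.

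The sorts of days 2 and 3 have 1 sample a side, so differences there have no replicate check. On day 2, E-cadherin-negative cells were at least 1 higher on the log2 scale than E-cadherin-positive cells in 8 of 55 genes (14.5%, background 6.97%). These were Itgad (2.95), Col5a2 (2.83), Col4a1 (1.94), Itga8 (1.87), Itga11 (1.59), Col4a2 (1.497), Itga10 (1.38) and Sparc (1.24). Only Col4a4 was lower by that much (-1.58; 1.82%, background 4.78%). Where the brighter sort was at least at the median of its chip, the widest differences downward were Itga2b (-0.95), Col18a1 (-0.91) and Itgb7 (-0.74).

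On day 3, Sox1-positive cells were at least 1 higher than Sox1-negative cells in 10 genes (18.2%, background 6.86%). The widest were Col4a2 (2.54), Itga8 (2.21), Itga11 (1.90) and Col14a1 (1.83), followed by Col4a1 (1.65), Sparc (1.59), Col5a2 (1.48), Itga10 (1.15), Col4a4 (1.06) and Lama1 (1.01). They were lower by that much in 4 (7.27%, background 7.33%): Itga9, a receptor chain for tenascin (-1.82), Lamc1 (-1.46), the leukocyte chain Itgal (-1.19) and Lama2 (-1.07).

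The 2 sorts share no sample. Col4a1, Col4a2, Col5a2, Sparc, Itga8, Itga10 and Itga11 were at least 1 higher in both, 7 genes, or 87.5% of the day 2 list and 70% of the day 3 list. Of all genes, 366 were higher in both, 40.6% of 902 and 41.2% of 888. Itga11 passed its intensity filter of 117 only through the high sample of each sort. Its place in this count and in that of each sort is thus no support for a difference. Itga8 stands here by 1 probe set, whose rise in Sox1-positive cells its other probe sets did not share. Between the sorts the neural marker sum also moved: 19562 against 4736 on day 2 and 28105 against 5121 on day 3. Its part in these differences was not tested.

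**Figure D5:**
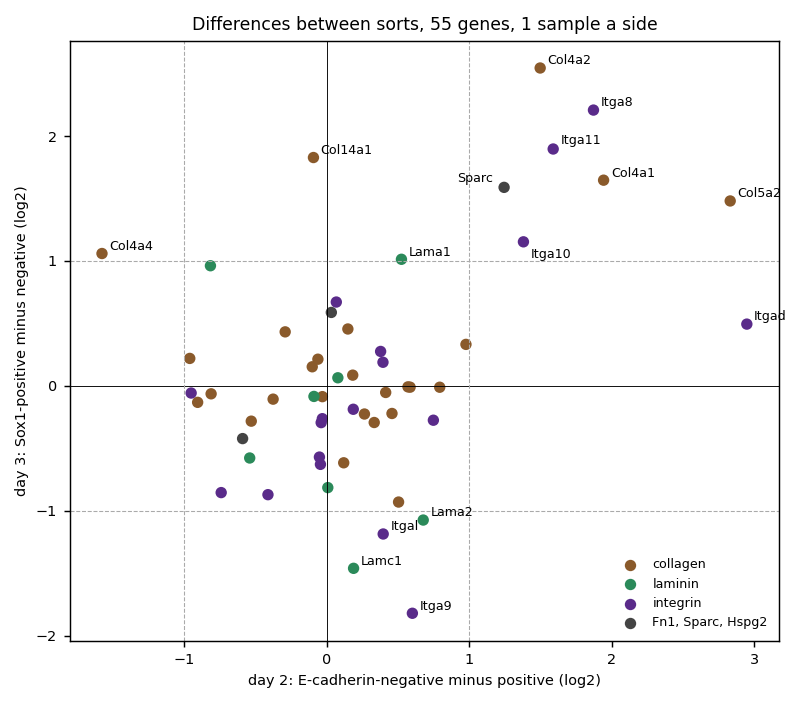
Differences on the log2(intensity + 16) scale for the 55 tested genes, day 2 E-cadherin-negative minus positive on the horizontal axis and day 3 Sox1-positive minus negative on the vertical axis, coloured by family, with dashed lines at 1 and -1. The 7 genes in the upper right beyond both lines are Col4a1, Col4a2, Col5a2, Sparc, Itga8, Itga10 and Itga11.

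Set singly against ES cells, with the spread taken from the ES samples, each of the 4 other aggregate samples gave 0 called genes of 55 by limma. The background was 0% for day 1, day 2 E-cadherin-positive and day 3 Sox1-negative cells and 0.0232% for day 2 E-cadherin-negative cells. At an unadjusted p under 0.05 the counts were 5 on day 1 (background 6.28%), 9 in day 2 E-cadherin-positive cells (7.45%), 6 in day 2 E-cadherin-negative cells (14.6%) and 6 in day 3 Sox1-negative cells (6.47%). Without ES 1 the ES spread rests on 2 samples, ES 2 and ES 3, which were the high ones for each of the 4 genes then called, so the following counts restate the split among ES samples and are no further evidence. Limma then called Col1a1 (-2.09) and Col5a2 (-2.34) on day 1 (background 0.286%). In day 2 E-cadherin-positive cells it called Col1a1 (-1.68), Col4a1 (-1.78) and Col5a2 (-2.55; background 0.34%). In day 3 Sox1-negative cells it called Col5a2 (-2.08) and Hspg2 (-1.94; background 0.456%), and in day 2 E-cadherin-negative cells 0 of 55 (background 2.05%).

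Of the 25 genes below the filter, several still differed when no filter was applied. Limma then called 7 of the 80 genes between Sox1-positive and ES cells (8.75%, background 7.6%): Itga3, Itga6 and Itgb7 as before, Itga5 and Itgb3 lower, and Itgb8 and Col2a1 higher. Itgb8, a TGF-beta-activating integrin chain, read 29.8, 32.5 and 37.8 in ES cells, 4.69, 3.21, 50.2 and 44.8 in the other aggregates, and 113, 177 and 365 in Sox1-positive cells (114164_at). All Sox1-positive samples were above the rest, and the difference from ES cells was 2.10 ± 0.380 (limma adjusted p = 0.0229). A second Itgb8 probe set (106886_at) differed by 1.68 ± 0.277 (limma adjusted p = 0.0163). Itgb3, a platelet and vascular chain, read 164, 62.7 and 106 in ES cells and 30.2, 24.4 and 18.9 in Sox1-positive cells (-1.58 ± 0.320, limma adjusted p = 0.0335). Itga5 differed by -1.47 ± 0.325 (limma adjusted p = 0.0427), and Col2a1, the cartilage collagen, by 1.09 ± 0.230 (limma adjusted p = 0.0372).

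The remaining dim genes were Itgam, Itgb2, Itgae, Itga1, Itga4, Lamb3, Lamc3, Nid1, Col3a1, Col4a3, Col4a6, Col6a6, Col8a2, Col10a1, Col15a1, Col16a1, Col17a1, Col19a1, Col22a1, Col25a1 and Col27a1. Their brightest probe sets averaged between 18.4 (Itgam) and 101 (Col27a1) over the 10 samples.

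Genes that build, cut or bind the matrix moved more than the chains themselves in a few cases. Of 18 tested collagen-processing genes, limma called 3 higher and 4 lower in Sox1-positive than in ES cells. Serpinh1, the collagen chaperone, read 410, 1035 and 1081 in ES cells and 2244, 2508 and 1979 in Sox1-positive cells (1.51 ± 0.355, limma adjusted p = 0.0327), and P3h2, a prolyl 3-hydroxylase, rose by 1.95. Pcolce, which enhances procollagen cleavage, read 1060, 1196 and 1009 in ES cells and 252, 137 and 172 in Sox1-positive cells (-2.48 ± 0.232, limma adjusted p = 0.000999), and its relative Pcolce2 fell by 2.40 on the log2 scale.

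Of 37 other matrix glycoproteins and proteoglycans tested, 8 were called higher and 1 lower. The widest rises were those of the fibrillin Fbn2 (2.31) and the basement membrane protein Fras1 (2.21). The fall was that of Nid2, the second nidogen, which read 1709, 1205 and 1628 in ES cells and 294, 245 and 130 in Sox1-positive cells (-2.73 ± 0.298, limma adjusted p = 0.00170). Its day 2 E-cadherin-negative value was 431, against 1286 to 1867 in the other 3 aggregates.

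Of 17 proteases and inhibitors, 3 were called, all higher, with Timp4 (1.92) and Mmp16 (1.56) widest. Of 30 genes of the integrin adhesion machinery, 2 were called higher, the kinase Fyn (1.98) and the integrin-associated Cd47 (1.30), and 4 lower, led by the tensin Tns3 (-2.58) and the tetraspanin Cd9 (-1.63). Of 12 other matrix receptors, Sgce, a sarcoglycan (1.90), and Ddr1, a collagen-binding kinase (1.45), were called higher and Bcam, a receptor of laminin alpha 5, lower. Bcam read 919, 2259 and 2566 in ES cells and 255, 183 and 239 in Sox1-positive cells (-2.88 ± 0.381, limma adjusted p = 0.00396). The background for these counts is again 12.6%.

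Markers of other lineages were read for the cells a sort might still hold. Of 18 primitive and parietal endoderm markers tested, which are cells rich in type IV collagen and laminin, 1 was called between Sox1-positive and ES cells. That gene was Fst, which encodes the activin-binding protein follistatin and is not particular to endoderm (3.48, limma adjusted p = 0.000900). The endoderm sum was 8018, 10844 and 9637 in ES 1, 2 and 3. It was 7787 to 8496 in the other aggregates and 9762 to 10520 in Sox1-positive cells. ES 2 and ES 3 were both above ES 1 in 10 of 21 markers, and by at least 1 in 3 (background 2.82%). These were Krt8 (165, 665 and 442), Krt18 (118, 375 and 283) and Lrp2 (798, 2459 and 2056). In Sox1-positive cells Fst read 1170, 1830 and 984, and Foxa2 1315 on day 5 (28.1 to 55.3 elsewhere). The part of such cells in the matrix gene levels was not tested. Of 9 fibroblast, 7 mesoderm and 5 blood or endothelium markers tested, limma called 0, with 1, 0 and 1 at an unadjusted p under 0.05. The background against ES cells was 12.6% called and 27.8% at an unadjusted p under 0.05. Acta2 and Tagln ranged over 3.43 and 3.31 on the log2 scale among ES samples, so the 0 says little about them. Of 9 neural crest markers, Ednrb was called higher (5.78) and Erbb3 (-2.66) and Foxd3 (-1.23) lower. Against the other aggregates, limma called Serpinh1 (1.58), Adam10 (1.00), Fst (2.49) and the neural factor Nr2f1 (5.30) higher. It called 8 of 12 pluripotency markers lower, the widest being Esrrb (-4.61) and Zfp42 (-4.41). The background of that comparison was 1.75%.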

How the data were processed

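RNA of 10 samples was measured on 3 Affymetrix chips (U74Av2, U74Bv2 and U74Cv2), 30 arrays in all. The deposited values are 1 linear intensity per probe set and array, already scaled by the authors to a 2% trimmed mean near 500, as the values show; how they were computed from the scans is not stated in the sources here. Probe sets were named from the platform's annotation, with symbols updated by Entrez ID to RefSeq names of GRCm38.p6. Of 36701 probe sets, 29131 named 1 gene, 724 several and 6846 none.

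From these intensities, log2(intensity + 16) was tested where the mean intensity reached the 30th percentile of the chip (78.6, 117 and 102), which left 25690 probe sets. Comparisons used limma 3.58.1 (R 4.3.3), fitted chip by chip (lmFit, eBayes), with p-values adjusted after Benjamini-Hochberg across all chips at once and a threshold of 0.05. A gene is its tested probe set with the highest mean log2 value (12941 genes). Sorts and the ES range were counted at 1 on the log2 scale, with no test. On simulated data of 25690 probe sets, differences of 2 were recovered in 87.3% of cases for Sox1-positive against ES cells and 64.7% for a lone sample, and differences of 1 in 32.3% and 3.33%. False calls made up 6.75% and 10.5% of the calls. All simulated samples had the spread of the ES samples, so the mixing of days and sorts within a class is not in these figures.

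The genes and lists were chosen with earlier results of these data known. Named are Fn1, Sparc, Nid1, Hspg2, Col4a1, Col4a2, Lama1, Lamb1, Lamc1, Itgb1, Itga5, Itga6 and Itgav, genes called in a class comparison, the 5 widest in ES range, the 3 widest each way between sorts and, from each list, the 2 largest called each way; other names were chosen after their values were seen. Alternatives were scaling by quantiles or by the 75th percentile, a pseudocount of 1 or of 64, a filter at the 60th percentile or none, the mean over probe sets, a mean-variance trend, each sample left out and, added after seeing the data, plain probe sets preferred. Plots used matplotlib 3.10.9 under Python 3.11.15.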

Additional observations from a re-analysis of the deposited data

Results flagged for a closer look

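Within the 4 aggregate samples without a Sox1-positive sort, 5 of the 55 tested genes had a sample whose gap to the nearest other exceeded Dixon's 95% critical value for groups of 4; chance flags about 1 in 20 such groups, and the 4 samples differ in day and sort. Col5a2 stood out as high in the day 2 E-cadherin-negative sample (intensity 758). Itga3 was high on day 1 (382). In day 2 E-cadherin-positive cells Itgb5 (414) and Col6a3 (536) were low, and in day 3 Sox1-negative cells Col14a1 was low (96.1). Col4a5 was marked because Sox1-positive and other aggregate samples differed directly, by 1.03 on the log2 scale (limma adjusted p = 0.0493), but it had passed the intensity filter (mean 79.1 against 78.6) only through its Sox1-positive samples, so this is a description and no support for a difference.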

How the results depend on the processing

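Counts of called genes moved most with single samples. Leaving out each sample in turn gave 1 to 4 calls between Sox1-positive and ES cells (5 with all samples), the lowest without ES 2, and 3 and 2 without the Sox1-positive sample of day 3 or day 4. Between Sox1-positive and other aggregate cells the range was 0 to 8 (1 with all samples), the highest without day 2 E-cadherin-negative cells. It was 0 to 0 between other aggregates and ES cells, and 0 to 7 for the lone samples in sum, the highest without ES 1. The count against the other aggregates was also 0 with scaling to the 75th percentile, with a pseudocount of 1 and with no filter. With a pseudocount of 64, 9 genes (14 otherwise) passed 1 on the log2 scale between the day 3 sorts and 7 (11 otherwise) in ES range. The cause of these shifts was not tested. Itga3 was the gene whose call held in every alternative run. No paired analysis was possible because only ES samples carry replicate numbers. On simulated data a difference of 1 on the log2 scale was recovered in 32.3% of cases for Sox1-positive against ES cells and in 3.33% for a lone sample, so differences of this size could be missed. These figures take the spread of the ES samples for all samples.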
